A study of Mus musculus with 8 samples.

Results

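The 10 genes described here encode the enzymes that make serine from a glycolytic intermediate and the enzymes that pass the carbon of serine through folate. They were taken by symbol from a table of 52778 features, and all 10 were found and were expressed enough to be tested. In the serine pathway, Phgdh, Psat1 and Psph act in that order. Serine hydroxymethyltransferase then moves a carbon from serine to tetrahydrofolate and leaves glycine, in mitochondria (Shmt2) or in the cytosol (Shmt1). The mitochondrial carbon is oxidised by Mthfd2 or Mthfd2l and either released as formate by Mthfd1l or burned to carbon dioxide by Aldh1l2. Formate that leaves the mitochondrion is attached to folate again by the cytosolic enzyme Mthfd1 and feeds purine, thymidylate and methyl group synthesis. ATF4, a transcription factor translated when cells lack amino acids or are under other stress, is known as an activator of serine synthesis and mitochondrial folate genes.

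The study sequenced RNA of ventricular heart from mouse embryos at embryonic day 11.5, in 4 control and 4 Atf4(del7/del7) libraries described as biological replicates. The mutants lack 7 bases of Atf4 exon 3 on both alleles, removed with CRISPR/Cas9, which shifts the reading frame, and no embryo was treated with a compound. The labels give the C57BL/6 WT genotype to all 8 samples, mutants included, so the groups rest on the sample titles and the treatment field. The protocol text attached to the samples names cultured cortical neurons, whereas the tissue, cell type and source labels name ventricular heart and the titles heart. In the data, the 8 cardiomyocyte markers summed to between 40402 and 43129 TPM (transcript abundance corrected for length and for the size of the library, so that genes can be compared). Of 6 neuronal markers 4 (Dcx, Snap25, Neurod1 and Rbfox3) stayed under 1 TPM in all libraries. Tubb3 and Stmn2 were expressed enough to be tested. The 6 neuronal markers summed to 8.41 to 13.8 TPM in controls and 9.34 to 10.5 TPM in mutants. TPM keeps no read depth, so errors given here rest on differences between libraries. SDs are the spread over the 4 libraries of each genotype. SEs and 95% intervals come from the limma fit, which pools both genotypes and draws on the variances of all genes tested. The targeted gene checks the labels only weakly, because the allele leaves a transcript: Atf4 held 105, 121, 115 and 105 TPM in control replicates 1 to 4 and 166, 164, 185 and 148 TPM in mutant replicates 1 to 4, a log2 difference of 0.57 (limma adjusted p = 0.0430). This call held in 5 of 17 alternatives, with an adjusted p of up to 0.354, and was lost in each fit with 1 library left out except that without mutant replicate 4.

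Of the 10 enzymes, 2 fell in the mutants at an adjusted p below 0.05 (limma, Benjamini-Hochberg over all 15545 genes tested), Phgdh and Aldh1l2, and 0 rose. Among all genes tested, 0.0322% were called lower and 0.00643% higher, and the enzymes were chosen with both calls already known. Phgdh stood at 72.1% and Aldh1l2 at 72.2% of the control mean, and in both every mutant lay below every control, as in 2.05% of all tested genes. At an unadjusted p below 0.05 there were 4 enzymes, Phgdh, Psat1, Mthfd2 and Aldh1l2, all lower in the mutants, as were 3.45% of all tested genes. The 8 enzymes other than Phgdh and Aldh1l2 did not pass the adjusted threshold, with log2 fold changes between -0.16 and 0.051. By role, 3 of 3 serine synthesis enzymes, 4 of 5 mitochondrial and 1 of 2 cytosolic folate enzymes had a lower mean in the mutants, against 51.8% of all tested genes. The median log2 fold change was -0.085 over the 10 enzymes and -0.0033 over all tested genes. Because whole ventricle was sequenced, fewer cells that express a gene and less RNA per cell cannot be told apart.

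**Figure D1:**
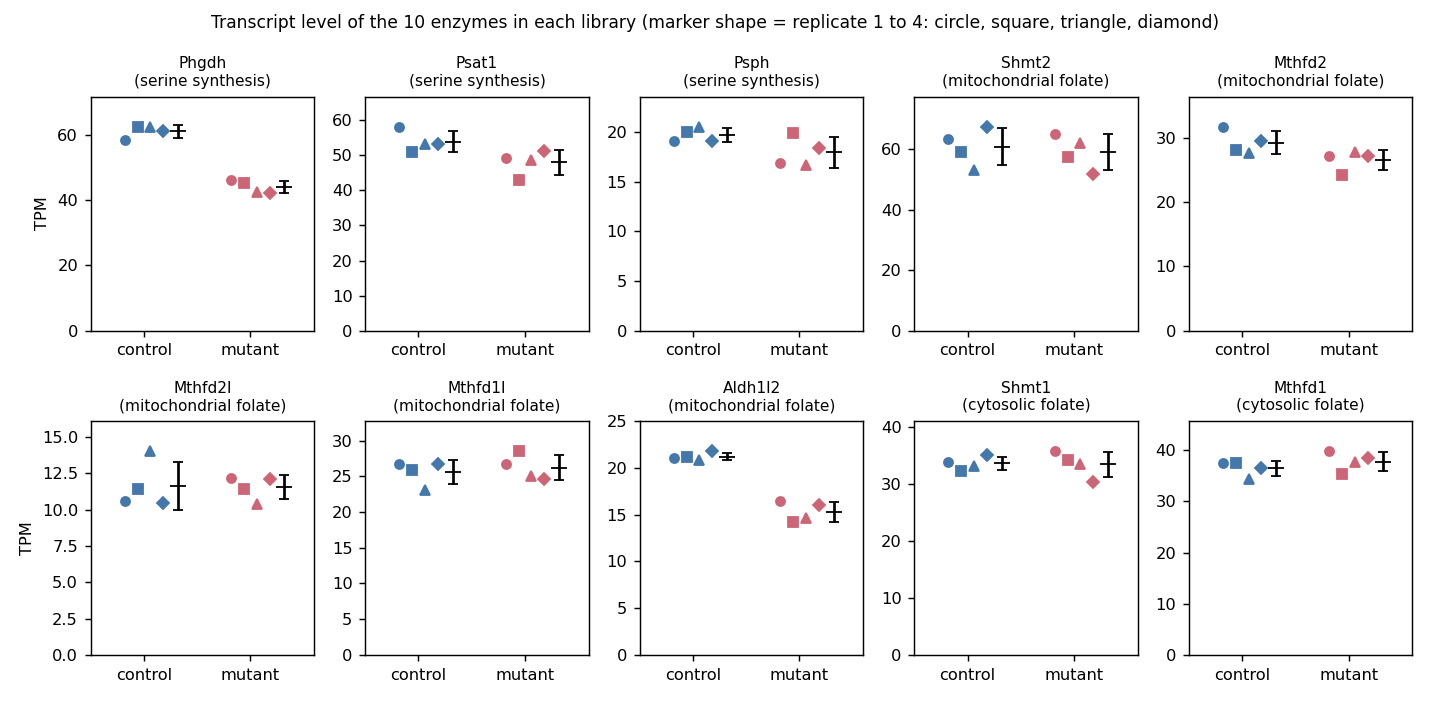
TPM of each of the 10 enzymes (vertical axes, starting at 0) in the 4 control and 4 mutant libraries, with 1 marker per library and the mean and SD beside each group. The control and mutant markers are separated for Phgdh and Aldh1l2 and overlap for the other 8 enzymes.

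Phgdh (chromosome 3, bases 98313171 to 98339969, minus strand) encodes phosphoglycerate dehydrogenase, which draws 3-phosphoglycerate out of glycolysis and commits it to serine. It held 58.5, 62.5, 62.5 and 61.3 TPM in the control libraries and 46.1, 45.4, 42.5 and 42.4 TPM in the mutant libraries. Every mutant lay below every control, with 12.3 TPM between the closest libraries of the groups. The group means were 61.2 ± 1.90 TPM in controls and 44.1 ± 1.93 TPM in mutants (SD, 4 libraries each), 27.9% lower. On the log2(TPM + 1) scale the difference was -0.46 (SE 0.042, 95% interval -0.56 to -0.37, limma adjusted p = 0.00883). This was the smallest p-value of the 15545 genes. Phgdh-ps1, a pseudogene listed separately, reached at most 0.121 TPM in any library. The adjusted p rose to between 0.0566 and 0.0628 when control replicate 2, 3 or 4 was left out, with the log2 difference between -0.46 and -0.45. It was 0.0715 with no expression filter and 0.0712 with no variance trend.

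Psat1 (chromosome 19, bases 15905123 to 15925059, minus strand) encodes the aminotransferase that follows, which takes its nitrogen from glutamate. Its control libraries held 58.1, 50.9, 53.3 and 53.3 TPM and its mutant libraries 49.2, 43.0, 48.7 and 51.2 TPM. The groups touched at a single point, where mutant replicate 4 exceeded control replicate 2 by 0.218 TPM. The means were 53.9 ± 3.00 and 48.0 ± 3.50 TPM (SD, n = 4 each), 10.9% lower in the mutants. The log2 difference of -0.16 (SE 0.060, 95% interval -0.30 to -0.030) did not pass, with an unadjusted limma p of 0.0214 and an adjusted p of 0.800.

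Psph (chromosome 5, bases 129765558 to 129787443, minus strand) encodes the phosphatase that releases free serine. It held 19.2, 20.1, 20.5 and 19.2 TPM in controls and 16.9, 20.0, 16.7 and 18.4 TPM in mutants. In 3 of 4 mutants the level was below that of every control, and mutant replicate 2 lay within the control range. The log2 difference was -0.13 (SE 0.063, 95% interval -0.27 to 0.011, limma adjusted p = 0.841). Psph shares 88 bases with Cct6a, a chaperonin gene on the opposite strand with a mean of 262 TPM, and how reads in shared bases were counted is not given in the sources used here. The TPM of the 3 serine synthesis enzymes summed to 133 to 136 in controls and 108 to 112 in mutants. The ratio of Phgdh to Psph was 3.04 to 3.20 in the controls and 2.28 to 2.73 in the mutants, with no overlap. That of Phgdh to Psat1 was 1.01 to 1.23 in the controls and 0.828 to 1.06 in the mutants, with overlap. These ratios carry the fall of Phgdh, known when the enzymes were chosen, and are given as a description.

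The windows around the start sites of Phgdh, of Psat1 and of the cytosolic enzyme Shmt1 are shown to set a promoter whose gene fell beside promoters of genes that did not pass. They are RefSeq windows of GRCm38.p6, on the minus strand and 5′ to 3′, with 250 bases before the start site and 50 after it. Capitals mark the letters CCAAT or, elsewhere, GGGCGG, each on either strand.
Phgdh, chr3:98339920-98340219: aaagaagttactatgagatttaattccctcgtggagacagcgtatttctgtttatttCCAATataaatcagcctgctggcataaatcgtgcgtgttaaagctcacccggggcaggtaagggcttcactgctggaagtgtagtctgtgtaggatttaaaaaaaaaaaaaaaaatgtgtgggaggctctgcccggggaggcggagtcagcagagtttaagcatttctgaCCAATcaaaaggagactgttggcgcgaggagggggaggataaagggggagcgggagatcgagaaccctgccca
Psat1, chr19:15925010-15925309: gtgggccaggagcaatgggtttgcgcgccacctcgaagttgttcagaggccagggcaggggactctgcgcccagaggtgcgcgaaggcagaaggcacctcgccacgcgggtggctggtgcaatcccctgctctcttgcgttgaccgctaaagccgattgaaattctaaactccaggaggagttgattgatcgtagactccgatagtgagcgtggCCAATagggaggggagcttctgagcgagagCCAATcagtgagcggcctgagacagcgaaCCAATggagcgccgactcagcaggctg
Shmt1, chr11:60811216-60811515: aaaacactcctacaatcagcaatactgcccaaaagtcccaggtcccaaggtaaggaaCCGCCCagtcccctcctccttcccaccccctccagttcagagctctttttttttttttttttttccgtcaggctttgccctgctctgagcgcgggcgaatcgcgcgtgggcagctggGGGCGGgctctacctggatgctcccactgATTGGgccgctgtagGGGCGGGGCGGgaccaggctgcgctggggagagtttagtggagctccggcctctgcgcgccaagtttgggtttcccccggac
Of the 10 enzymes, 9 had a window, Psat1 had 2, and Aldh1l2 had none. The core of the C/EBP-ATF response element, searched as TGATGNAA on both strands, was in 0 of these 10 windows and in 3.97% of 32817 windows of all genes. The cyclic AMP response element TGACGTCA was also in 0 of the 10 and in 1.79% of all windows. With both so rare over all windows, their absence from 10 says little, and sites outside the windows were not searched. The windows of Mthfd2, Mthfd2l and Mthfd1 lie wholly inside the gene bounds given below, so a start site at the outer bound was not covered. CCAAT, the letters of a common promoter box, was in 6 of the 10 windows and in 37.4% of all windows. The 6 belong to Phgdh, Psat1, Psph, Mthfd2, Shmt1 and Mthfd1, which include both cytosolic enzymes. The window of Phgdh holds CCAAT at 193 and 23 bases before the start site and no GC box. The GC box GGGCGG, 2 copies of which overlap in Shmt1, was in 6 of the 10 windows and in 35.6% of all windows.

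Shmt2 (chromosome 10, bases 127517123 to 127522444, minus strand), the entry point of serine carbon in mitochondria, was the most variable of the abundant enzymes. It held 63.6, 59.3, 53.2 and 67.3 TPM in controls and 65.1, 57.5, 62.2 and 51.7 TPM in mutants. Control replicate 3 and mutant replicate 4 were the low libraries, and the groups overlapped over most of their range. Shmt2 shares 32 bases with Ndufa4l2, which lies on the opposite strand and had a mean of 6.87 TPM. The log2 difference was -0.041 (SE 0.086, 95% interval -0.23 to 0.15, limma adjusted p = 0.973), and its sign turned when control replicate 4 (0.0091) or mutant replicate 4 (0.021) was left out.

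Mthfd2 (chromosome 6, bases 83305704 to 83326011, minus strand) encodes the mitochondrial dehydrogenase and cyclohydrolase that is typical of embryonic and proliferating cells. Its controls held 31.7, 28.2, 27.7 and 29.5 TPM and its mutants 27.2, 24.2, 27.8 and 27.2 TPM. The groups touched where mutant replicate 3 exceeded control replicate 3 by 0.0556 TPM. The mean was 9.12% lower in the mutants, and the log2 difference of -0.13 (SE 0.059, 95% interval -0.27 to -0.0012) had an unadjusted limma p of 0.0483 and an adjusted p of 0.818. Mthfd2l (chromosome 5, bases 90930873 to 91021368, plus strand), its paralogue with the same activities, was the least abundant enzyme. It held 10.6, 11.4, 14.0 and 10.5 TPM in controls and 12.2, 11.5, 10.4 and 12.1 TPM in mutants, with control replicate 3 the high library. The log2 difference was -0.0036 (SE 0.094, 95% interval -0.21 to 0.21, limma adjusted p = 0.998). Its sign turned with quantile normalization (0.0077) and without control replicate 3 (0.082) or mutant replicate 3 (0.042).

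Mthfd1l (chromosome 10, bases 3972892 to 4167081, plus strand) and Aldh1l2 (chromosome 10, bases 83487447 to 83534146, minus strand) stand at the branch where the mitochondrial carbon is either exported as formate or fully oxidised with the yield of NADPH. Mthfd1l held 26.7, 25.9, 23.1 and 26.8 TPM in controls and 26.7, 28.5, 25.0 and 24.6 TPM in mutants, with overlapping groups. Its log2 difference was 0.031 (SE 0.064, 95% interval -0.11 to 0.17, limma adjusted p = 0.971), and its sign turned without control replicate 3 (-0.016) or mutant replicate 2 (-0.0084).

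Aldh1l2 held 21.1, 21.2, 20.9 and 21.8 TPM in the control libraries and 16.4, 14.2, 14.6 and 16.0 TPM in the mutant libraries. The controls were the most uniform of any enzyme here, with an SD of 0.384 TPM, and the highest mutant lay 4.46 TPM below the lowest control. The mean was 27.8% lower in the mutants, at 15.3 ± 1.05 TPM (SD, n = 4). The log2 difference was -0.45 (SE 0.055, 95% interval -0.57 to -0.32), with a limma adjusted p of 0.0430 and the fourth smallest p-value of all genes. The call was lost whichever of the 8 libraries was left out, at an adjusted p between 0.0639 and 0.204 and a log2 difference between -0.48 and -0.42, and also with no expression filter (0.159) and no variance trend (0.106). The TPM ratio of Aldh1l2 to Mthfd1l was 0.790, 0.816, 0.904 and 0.813 in the controls and 0.615, 0.500, 0.585 and 0.650 in the mutants. The ratio was thus lower in every mutant than in any control, as a description, since the pair was singled out after its values were seen.

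Shmt1 (chromosome 11, bases 60788897 to 60811265, minus strand) and Mthfd1 (chromosome 12, bases 76254406 to 76319820, plus strand) are the cytosolic enzymes. Shmt1 held 33.9, 32.2, 33.1 and 34.9 TPM in controls and 35.6, 34.1, 33.4 and 30.3 TPM in mutants. The mutants spread on both sides of the controls, and the log2 difference was -0.0087 (SE 0.053, 95% interval -0.13 to 0.11, limma adjusted p = 0.995). Without control replicate 4 it was 0.011 and without mutant replicate 4 it was 0.035. Mthfd1, which carries the synthetase, cyclohydrolase and dehydrogenase activities on 1 protein, held 37.5, 37.5, 34.3 and 36.5 TPM in controls and 39.7, 35.4, 37.6 and 38.4 TPM in mutants. In 3 of 4 mutants it exceeded the highest control, and the log2 difference was 0.051 (SE 0.048, 95% interval -0.056 to 0.16, limma adjusted p = 0.928). Both intervals exclude a fall of the size measured for Phgdh or Aldh1l2. The same holds for the other enzymes that did not pass, whose lowest bound was -0.30, for Psat1.

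**Figure D2:**
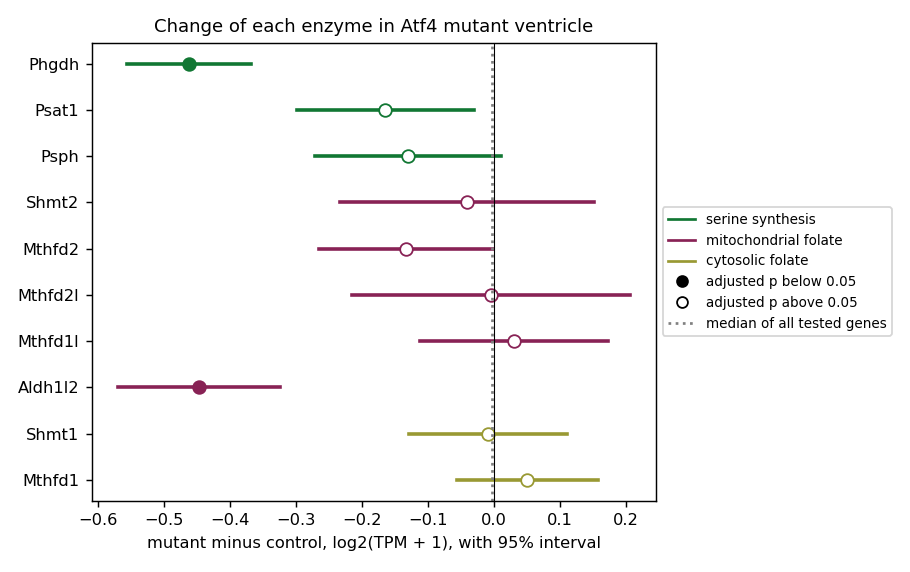
Difference between mutants and controls on the log2(TPM + 1) scale (horizontal axis) for each enzyme, with its 95% interval, coloured by role. Filled points, for Phgdh and Aldh1l2, have an adjusted p below 0.05. The intervals of both cytosolic enzymes and of Psph, Shmt2, Mthfd2l and Mthfd1l include 0. The dotted line marks the median of all tested genes.

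The roles were then contrasted as the mean log2(TPM + 1) of their enzymes in each library, with no test, because the enzymes were chosen with results known. The serine synthesis mean was 5.37 ± 0.0176 in controls and 5.12 ± 0.0292 in mutants (SD, n = 4 each), a difference of -0.25. The mitochondrial folate mean was 4.74 ± 0.0293 and 4.63 ± 0.0502, a difference of -0.12. The cytosolic folate mean was 5.17 ± 0.0374 and 5.19 ± 0.0597, a difference of 0.021 that became -0.0067 without mutant replicate 1. All mutants lay below all controls for the first and the second, and the groups overlapped for the cytosolic enzymes. As summed TPM, however, the mitochondrial enzymes overlapped between the groups, at 139 to 156 in controls and 132 to 148 in mutants. The mitochondrial mean of mutant replicate 1, at 4.7003, stood above the 4.60 of the other mutants. Its cytosolic mean was also the highest of the 8, at 5.27.

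Taken within each library, the mitochondrial minus the cytosolic mean was between -0.43 and -0.41 in the controls and between -0.59 and -0.53 in the mutants. This difference within a library had a smaller spread (SD 0.0118 in controls and 0.0243 in mutants) than either mean alone. Aldh1l2 carried most of the difference between the groups. Without it, the mitochondrial mean differed between the groups by -0.037, with overlap, and the mitochondrial minus cytosolic value by -0.058, without overlap. Without Phgdh, the mean of Psat1 and Psph differed by -0.15, with all mutants below all controls. On their own, both enzymes overlapped between the groups and did not pass (limma adjusted p = 0.800 and 0.841). The means without Aldh1l2 or Phgdh were added after seeing the data and are a description. The ranges of the 4 isozyme ratios computed overlapped between the groups. The ratio of Shmt2 to Shmt1 was 1.61 to 1.93 in controls and 1.69 to 1.86 in mutants. That of Mthfd1l to Mthfd1 was 0.673 to 0.735 in controls and 0.642 to 0.804 in mutants. That of Mthfd2 to Mthfd2l was 1.98 to 2.99 in controls and 2.12 to 2.67 in mutants. That of Aldh1l2 to the scarce cytosolic Aldh1l1 was 14.5 to 23.3 in controls and 9.31 to 14.7 in mutants, where mutant replicate 1 alone reached the lowest control.

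**Figure D3:**
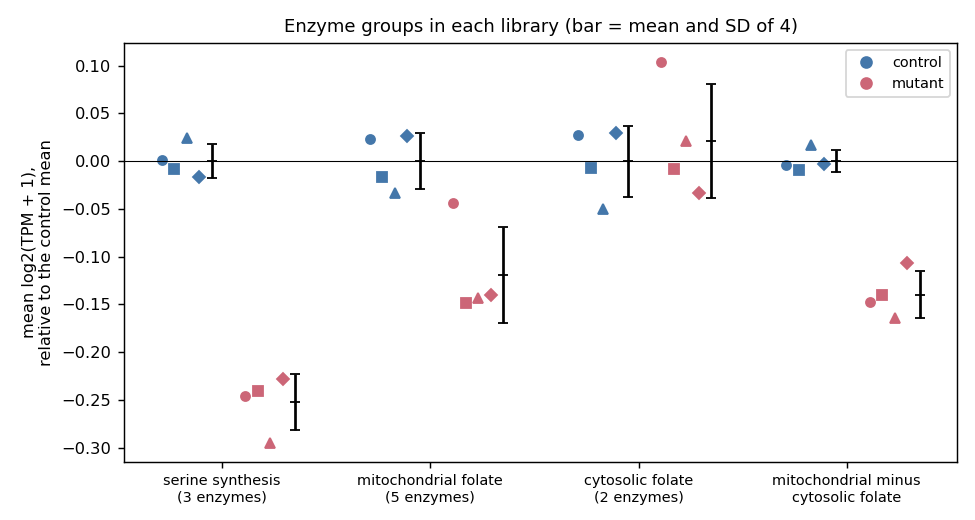
Mean log2(TPM + 1) of the enzymes of each role, and the mitochondrial minus cytosolic difference, in each library, relative to the control mean (vertical axis). Bars give the mean and SD of 4 libraries. Mutants lie below controls for serine synthesis, mitochondrial folate and the difference, and overlap with controls for the cytosolic enzymes.

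The order of the levels differed between the groups. In controls Phgdh (61.2 TPM), Shmt2 (60.8 TPM) and Psat1 (53.9 TPM) led, and neighbours in that order overlapped. Mthfd1 (36.4 TPM) and Shmt1 (33.5 TPM) followed and overlapped with each other. Below them came Mthfd2 (29.3 TPM), Mthfd1l (25.6 TPM), Aldh1l2 (21.2 TPM), Psph (19.7 TPM) and Mthfd2l (11.6 TPM), with no overlap between neighbours. In mutants Phgdh moved from the first to the third place, behind Shmt2 and Psat1, with its libraries overlapping those of Psat1. Aldh1l2 and Psph exchanged places: all controls held more Aldh1l2 than any control held of Psph, and all mutants held less.

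Among 11626 other genes with a mean of at least 5 TPM, the profile of Phgdh over the 8 libraries was compared by the root-mean-square difference of mean-centred log2(TPM + 1). The closest were Iars (0.0688), Gm44705 (0.0713), Aldh1l2 (0.0726), LOC115486847 (0.0791) and Yars (0.0991). Iars and Yars encode cytosolic tRNA synthetases, for isoleucine and tyrosine. Aldh1l2 was thus the third closest gene, whereas the second closest of the 10 enzymes, Psph, ranked 311 at 0.183. The measure includes the difference between the groups, which was -0.46 for Phgdh and -0.45 for Aldh1l2. Because the enzymes were chosen with both calls known, these ranks are a description and no separate result. Psat1 followed at 0.189 and Mthfd2 at 0.199. Further away were Shmt1 (0.235), the mitochondrial enzymes Shmt2 (0.248), Mthfd2l (0.255) and Mthfd1l (0.261), and Mthfd1 (0.269).

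Other genes of one-carbon metabolism were compared in 4 lists of 50 genes in all, and 40 of these reached the expression filter. None of the 40, a count of 0, passed the adjusted threshold in limma. Among all tested genes 0.0322% were called lower and 0.00643% higher, so this count says little about the lists. At an unadjusted p below 0.05 there were 3, all lower, against 3.45% of all tested genes in that direction, and 22 of the 40 were higher and 18 lower. Every mutant lay below every control in 3 of the 40, as in 2.05% of all tested genes. The genes named from each list had its smallest unadjusted p-values, so a lack of overlap in them is no separate result. The list of folate uptake, retention and other folate enzymes had 10 of 18 tested genes higher and 8 lower, with a median log2 difference of 0.022. The largest difference in it was that of Slc19a1, the reduced folate carrier, which held 7.34, 6.66, 5.64 and 7.24 TPM in controls and 6.05, 5.31, 5.51 and 1.78 TPM in mutants. Its log2 difference of -0.53 (limma adjusted p = 0.841) rested on mutant replicate 4 and was -0.22 without it. Slc25a32, the mitochondrial folate carrier, had a log2 difference of -0.20 (limma adjusted p = 0.841). Tyms, which makes thymidylate, was at 22.3 ± 1.65 TPM in controls and 24.4 ± 0.931 TPM in mutants (SD, n = 4 each, limma adjusted p = 0.832).

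The 4 genes of the glycine cleavage system, which feeds mitochondrial folate from glycine, had log2 differences between 0.015 (Amt) and 0.11 (Gldc), with Dld at 0.054 and Gcsh at 0.034. The lowest adjusted p among them was 0.903 in limma. Among 11 tested genes of serine and glycine transport and use, 7 were lower and 4 higher, with a median log2 difference of -0.029. Slc1a4, a carrier of serine, alanine and cysteine, held 6.51, 6.98, 6.58 and 7.71 TPM in controls and 5.32, 4.37, 5.30 and 3.94 TPM in mutants. The groups did not overlap, and the log2 difference was -0.48 (SE 0.10), with an unadjusted limma p of 0.000870 and an adjusted p of 0.501. Slc6a9, a glycine carrier, held at least 4.62 TPM in each control and 3.53, 1.24, 4.22 and 3.22 TPM in mutants, also without overlap. Its log2 difference was -0.60 (limma adjusted p = 0.800), and -0.34 without mutant replicate 2. Sdsl, a serine dehydratase-like enzyme, was at -0.25 (limma adjusted p = 0.843) and Gcat, which cleaves the threonine breakdown product to glycine, at 0.13 (limma adjusted p = 0.841).

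In the methionine cycle and choline-derived list, 4 of 7 tested genes were higher and 3 lower, with a median log2 difference of 0.037. Mat2a, which makes S-adenosylmethionine outside the liver, held 172, 166, 160 and 171 TPM in controls and 156, 153, 157 and 154 TPM in mutants, without overlap. Its log2 difference was -0.11 (SE 0.031), with an unadjusted limma p of 0.00620 and an adjusted p of 0.742. Mat1a, the form known from liver, was near the limit of the filter at 1.00 TPM in controls and 1.30 TPM in mutants (limma adjusted p = 0.843). Ahcyl1 was at 0.063 and Ahcy, which clears S-adenosylhomocysteine, at 0.069, with adjusted p of 0.867 and 0.914 in limma.

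**Figure D4:**
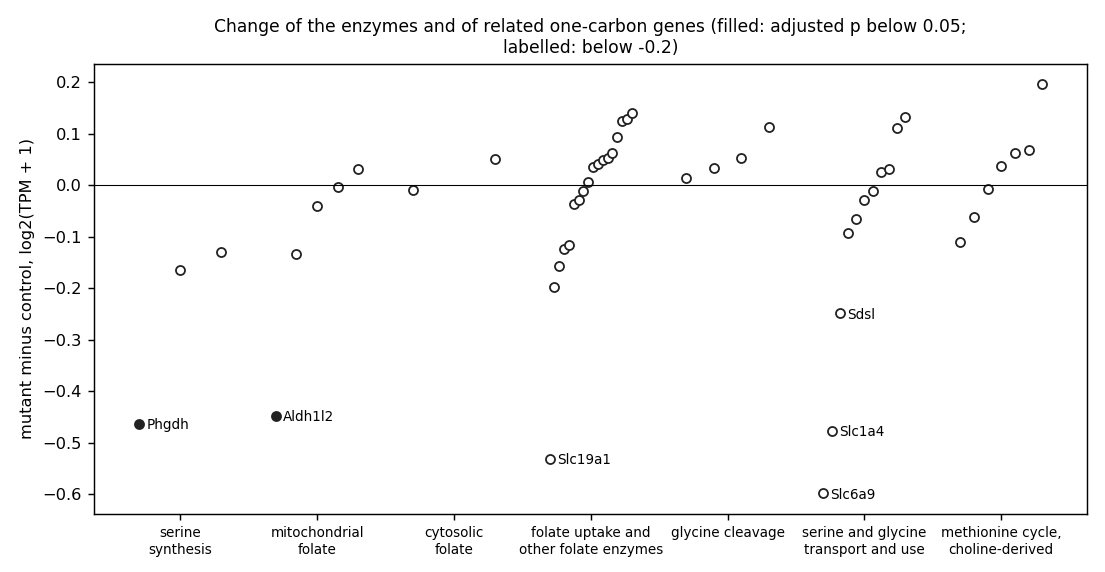
Difference between mutants and controls on the log2(TPM + 1) scale (vertical axis) for the 10 enzymes and for the 40 tested genes of the 4 related lists, ordered by size within each list. Filled points have an adjusted p below 0.05, which is the case for Phgdh and Aldh1l2 only, and genes below -0.2 are labelled.

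Marker genes of cell types are given beside these results, although their TPM in whole ventricle does not count cells. The summed TPM of the groups overlapped in each of the 9 marker lists. Of their 44 tested genes 0 passed the adjusted threshold in limma. Among all tested genes 0.0322% were called lower and 0.00643% higher, so the 0 says little about cell makeup. At an unadjusted p below 0.05, 1 marker was higher and 3 were lower, against 3.45% of all tested genes in the lower direction. Genes of S phase, in which folate-dependent thymidylate synthesis is active, summed to 1308 to 1398 TPM in controls and 1333 to 1389 TPM in mutants over 10 genes. Of these, 9 were higher and 1 lower in the mutants, with a median log2 difference of 0.033 and a lowest limma adjusted p of 0.841. The 6 erythroid markers summed to 3967 to 6729 TPM in controls and 3710 to 5216 TPM in mutants. The 4 macrophage markers summed to 6.11 to 13.7 TPM in controls and 3.70 to 7.19 TPM in mutants, with Aif1 under 1 TPM throughout. The 4 hepatocyte markers Alb, Afp, Apoa1 and Ttr were each under 1 TPM in every library. Sums for endocardial and endothelial (6 genes), epicardial (5 genes) and cushion mesenchyme (4 genes) markers were 481 to 520, 218 to 242 and 222 to 256 TPM in controls. In mutants they were 470 to 519, 211 to 236 and 214 to 240 TPM. The median log2 difference was -0.52 over the 3 tested macrophage markers, all lower in the mutants, and -0.28 over the 6 erythroid markers, 5 of them lower. The part of these shifts in the enzyme levels was not tested.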

How the data were processed

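The authors deposited TPM for 8 ventricular heart libraries in 1 table, whose columns were matched to samples by library name. Per the submitters' processing notes, Trim Galore 0.6.7, HISAT2 2.2.1, StringTie 2.2.1, featureCounts and DESeq2 were used with GRCm38. Which of them made the TPM, and with what strand setting, is not given in the sources used here. TPM depends on all transcripts of a library and keeps no read depth. The coordinates of the 10 enzymes were identical to RefSeq GRCm38.p6. Features with at least 1 TPM in at least 4 libraries were tested as log2(TPM + 1), a scale that understates changes of low genes. Mutants and controls were compared in limma 3.58.1 (R 4.3.3), with empirical Bayes variances that depend on expression and no covariate. P-values are two-sided, and calls were made at 0.05 after Benjamini-Hochberg adjustment over all genes tested. The fit was tested on simulated data. Descriptions and plots used Python 3.11.15.

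The enzymes and lists were chosen with earlier results of these data known. Also named are up to 4 genes per related list with the smallest unadjusted p and a mean of at least 1 TPM, and the 5 genes most like Phgdh. The result of 1 gene this rule picks is not reported here. Alternatives were a pseudocount of 0.1, other filters, 3 other scalings, no variance trend, library weights, a replicate block and each library left out. Role means without Phgdh or Aldh1l2 were added after seeing the data.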

Additional observations from a re-analysis of the deposited data

Results flagged for a closer look

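Named genes, role means, ratios and marker sums gave 108 groups of 4 libraries. In 4 of them 1 library lay far from the other 3, and chance alone would give 5.4 at a rate of 5%. The mitochondrial folate mean of mutant replicate 1, at 4.7003 on the log2(TPM + 1) scale, was above the 4.60 of the other mutants and still below every control. For Ahcy, mutant replicate 3 was the low library with 72.8 TPM, where the others held 86.2 to 87.6 TPM. The endocardial and endothelial markers summed to 520.0 TPM in control replicate 2 and to 481 to 484 TPM in the other controls. The S phase markers summed to 1398 TPM in control replicate 1 and to 1308 to 1317 TPM in the other controls.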

How the results depend on the processing

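Phgdh kept its sign in all 17 alternatives and passed in 11, with log2 differences from -0.48 to -0.44. Aldh1l2 kept its sign in all 17 and passed in 6, from -0.48 to -0.42. The number of enzymes past the threshold fell from 2 to 0 with no filter, with no variance trend and with the replicate block, and ranged from 0 to 1 when 1 library was left out. The number of all genes past it fell from 6 to 0 in the same settings, and ranged from 0 to 3 when 1 library was left out. With no filter, at 35731 features tested, Phgdh had an adjusted p of 0.0715, and the cause was not tested. Atf4 kept its rise of 0.57, but lost the call with no filter (adjusted p = 0.354) and no variance trend (adjusted p = 0.215). The same held under quantile normalization (0.55) and when mitochondrial and haemoglobin genes were removed before rescaling (0.56), and in 7 of the 8 fits with 1 library left out, where the value ranged from 0.51 to 0.62. Same-numbered control and mutant libraries did not deviate together, with correlations of their deviations between -0.0823 and 0.0351. With the replicate block Phgdh was at -0.46 (adjusted p = 0.252), Aldh1l2 at -0.45 (adjusted p = 0.367) and Atf4 at 0.57 (adjusted p = 0.249). Role means moved by less than the spread between libraries in each of these alternatives. Leaving out Phgdh or Aldh1l2, added after seeing the data, moved the serine synthesis difference to -0.15, the mitochondrial one to -0.037 and the mitochondrial minus cytosolic one to -0.058. Signs turned only for differences that were close to 0: the cytosolic role mean without mutant replicate 1 (-0.0067), Mthfd2l with quantile normalization (0.0077), and, over the fits with 1 library left out, Shmt2 (-0.10 to 0.021), Mthfd2l (-0.047 to 0.082), Mthfd1l (-0.016 to 0.059), Shmt1 (-0.040 to 0.035) and Amt (-0.031 to 0.078). No scaling moved the median of all genes by 0.1. The number of reads is unknown, which limits what can be said of low genes.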
